A study of Mus musculus with 6 samples.

Results

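The transcripts described are those of 6 genes of habenula pacemaking and burst firing, taken as the rows of the deposited expression table that carry the symbols Hcn2, Hcn3, Hcn4, Cacna1g, Cacna1h and Cacna1i. All 6 were found among the 55359 genes of the table. RNA was sequenced from the habenula of C57BL/6 mice aged 2 months and housed free of specific pathogens, in 3 wild-type (WT) libraries and 3 libraries labelled Tet2 cKO, a conditional knockout of the gene for the 5-methylcytosine dioxygenase TET2. The sources used here do not give the Cre driver, the deleted exons, the sex or whether libraries stem from different animals, and each p-value therefore reflects only library-to-library spread, which may be technical. Tet2, which checks the labels, stood at 3.45, 3.46 and 3.71 FPKM (fragments per kilobase of exon, scaled to the library total) in WT and at 4.47, 4.02 and 3.96 FPKM in those labelled Tet2 cKO. It was thus not lower there (log2 difference 0.22, SE 0.0768, edgeR adjusted p = 0.9999). Reads of undeleted exons stay in a whole-gene count, and every direction below is that of the label, not of a shown loss of Tet2.

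HCN channels open when a neuron is hyperpolarised, carry an inward sodium and potassium current, and bind cyclic AMP, which eases their opening. T-type calcium channels open at low voltage once hyperpolarisation has removed their inactivation, and their low-threshold spike can carry a burst of action potentials. Medial habenula neurons fire tonically without synaptic input, and a share of lateral habenula neurons fire in bursts for which T-type channels are needed.

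Library totals lay between 16089676 and 17917987 counts. WT replicate 3 stood apart, at 32.4 on the first principal component (33.0% of the variance), where the remaining 5 scored from -15.6 to 8.21. The summed level of 7 pan-habenula neuron markers was 101 FPKM in that library against 161 and 205 FPKM in WT replicates 1 and 2, and 178, 136 and 174 FPKM in the libraries labelled Tet2 cKO. Defining habenula genes were present in every library: Pou4f1, a transcription factor of habenula neurons, ranged from 7.61 to 17.01 FPKM and no marker of the medial, lateral or pan-habenula lists was at 0. The 10 choroid plexus markers summed to 451 to 1403 FPKM in WT libraries, against 173 to 828 FPKM in those labelled Tet2 cKO, and the 7 ependymal markers to 58.0 to 73.9 FPKM and 43.5 to 53.7 FPKM. In bulk tissue, fewer cells of a type and less RNA per cell cannot be told apart.

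The channel genes are paralogs, so their sequences bear on whether reads can be assigned to 1 gene. The stretches below are from GENCODE M21 transcripts on GRCm38 and lie in coding exons. The first set covers 60 bases of exon 4, around the selectivity filter of the HCN pore, and the capitals mark bases that differ from the Hcn2 line.
Hcn2: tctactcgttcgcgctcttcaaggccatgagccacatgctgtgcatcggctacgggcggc
Hcn4: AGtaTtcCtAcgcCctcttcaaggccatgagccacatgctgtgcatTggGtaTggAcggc
Hcn3: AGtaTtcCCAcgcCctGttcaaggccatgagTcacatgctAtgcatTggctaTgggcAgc
The Hcn2 stretch is chr10:79728912-79728971 on the plus strand, that of Hcn4 chr9:58855544-58855603 on the plus strand and that of Hcn3 chr3:89151002-89151061 on the minus strand. Hcn4 differs from Hcn2 at 10 of the 60 bases and Hcn3 at 13. The longest exact run shared by any pair of these HCN transcripts was 33 bases, between Hcn2 and Hcn3.

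The T-type genes are closer to each other. The second set is the longest run shared by Cacna1g and Cacna1i, with the matching place in Cacna1h, and the capitals mark bases that differ from the Cacna1g line.
Cacna1g: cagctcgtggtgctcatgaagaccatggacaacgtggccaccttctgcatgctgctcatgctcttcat
Cacna1i: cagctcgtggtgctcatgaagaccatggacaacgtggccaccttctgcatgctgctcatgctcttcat
Cacna1h: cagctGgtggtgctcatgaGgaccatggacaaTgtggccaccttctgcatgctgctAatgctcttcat
These stretches are chr11:94443187-94443254 on the minus strand in exon 11 of Cacna1g, chr15:80369688-80369755 on the plus strand in exon 12 of Cacna1i and chr17:25388574-25388641 on the minus strand in exon 12 of Cacna1h. Cacna1g and Cacna1i are identical over all 68 bases, and Cacna1h differs at 4. Even so, of all windows of 50 bases in the longest coding transcript, the share found in a transcript of another gene on either strand was 0.228% for Cacna1g, 0.206% for Cacna1i and 1.34% for Cacna1h, and it was 0% for Hcn2 and Hcn4. Hcn3 was the exception at 16.7%, every such window belonging to Pklr on the opposite strand, whose exons overlap 711 bases, or 17.1%, of the exonic length of Hcn3. Pklr, the liver and red cell pyruvate kinase, was listed at 0.02 to 0.16 FPKM, and Tpsg1, which overlaps 158 bases of Cacna1h on the opposite strand, at 0 to 0.24 FPKM. The sources used here do not say whether reads were counted by strand or how reads in such shared bases were assigned. The level of Hcn3, its place in the order and the HCN shares below carry that limit, which the low Pklr values do not remove.

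The levels were ordered Hcn2, Cacna1g, Hcn4, Hcn3, Cacna1i and Cacna1h, from 47.7 to 1.68 FPKM on average over the 6 libraries. This order depends on the exonic length used, 3195 bases for Hcn2 and 10137 for Cacna1g. In counts, Cacna1g was above Hcn2, at 4532 to 5379 against 2442 to 2809. Among the members of each family, 1 dominated. Hcn2 made up 73.6% ± 1.17 of the summed level of Hcn2, Hcn3 and Hcn4, called the HCN sum here, and Cacna1g 79.1% ± 1.49 of the summed T-type level (SD, n = 6 libraries). None of the 6 genes differed between the groups beyond the spread between libraries.

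**Figure D1:**
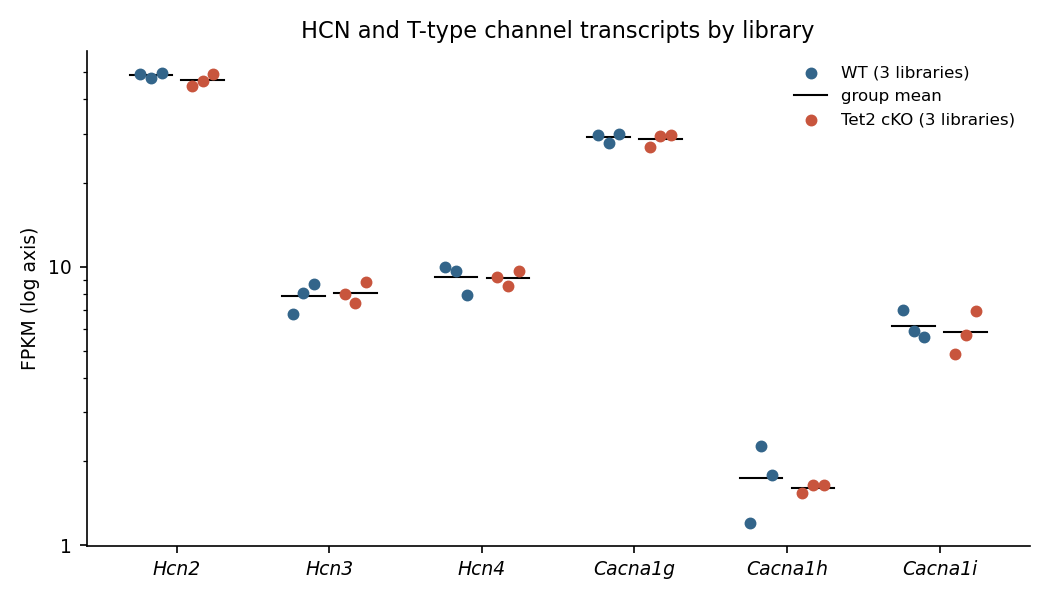
FPKM (log axis) of the 6 channel genes in each library, WT in blue and libraries labelled Tet2 cKO in red, with a line at each group mean (n = 3). Hcn2 sits between 44.65 and 49.55 FPKM and Cacna1h between 1.2 and 2.27 FPKM, and the groups overlap for each gene.

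Hcn2, a fast-opening, strongly cyclic AMP-sensitive HCN channel common in thalamus and other subcortical neurons, lies at chr10:79716634-79736108 on the plus strand (ENSMUSG00000020331, GRCm38). It stood at 49.06, 47.5 and 49.55 FPKM in WT libraries, against 44.65, 46.62 and 49.1 FPKM in those labelled Tet2 cKO. The lowest value was that of Tet2 cKO replicate 1 and the groups overlapped. In WT its level exceeded that of 94.4% of the 14539 tested genes, those with a mean of at least 1 FPKM. How much of this level came from thalamus neurons beside the habenula cannot be told in bulk tissue and was not tested. The coefficient of variation of Hcn2 over the 6 libraries was 3.94%, against 1.94% from counting error alone. The log2 difference, Tet2 cKO minus WT, was -0.07 (SE 0.0673, 95% interval -0.22 to 0.08), or 0.955-fold (edgeR quasi-likelihood test, Benjamini-Hochberg adjusted p = 0.9999, as for each of the 6 genes).

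Hcn4, the main HCN channel of the cardiac sinoatrial pacemaker and slow to open, lies at chr9:58823412-58863175 on the plus strand (ENSMUSG00000032338). Its level was 10.01, 9.69 and 7.95 FPKM in WT libraries, against 9.21, 8.51 and 9.67 FPKM in those labelled Tet2 cKO. WT replicate 3 was lowest and Tet2 cKO replicate 2 next, and the summed pan-habenula markers were lowest in the same 2 libraries, at 101 and 136 FPKM. Their part in the Hcn4 level was not tested. The log2 difference was -0.02 (SE 0.0986, 95% interval -0.24 to 0.20), and without WT replicate 3 it was -0.11. The direction turned when WT replicate 1 (0.045), WT replicate 2 (0.011) or Tet2 cKO replicate 2 (0.027) was left out.

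Hcn3, which responds little to cyclic AMP, lies at chr3:89146074-89160196 on the minus strand (ENSMUSG00000028051). Its level was 6.78, 8.06 and 8.67 FPKM in WT libraries, against 7.99, 7.43 and 8.82 FPKM in those labelled Tet2 cKO. WT replicate 1 was lowest, and the other 5 libraries interleaved. Hcn3 was the 1 member with a positive difference, 0.04 on the log2 scale (SE 0.109, 95% interval -0.21 to 0.28). Without WT replicate 1 the difference was -0.057 and with Tet2 cKO replicate 3 left out -0.030, while without WT replicate 3 it was 0.13.

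Among the T-type genes, Cacna1g encodes CaV3.1, the channel behind the rebound bursts of thalamic relay neurons, and lies at chr11:94408391-94474198 on the minus strand (ENSMUSG00000020866). It stood at 29.82, 27.79 and 29.86 FPKM in WT libraries, against 27.02, 29.5 and 29.67 FPKM in those labelled Tet2 cKO. The 6 values lay within a factor of 1.11, and Tet2 cKO replicate 1 was lowest, as for Hcn2. Its coefficient of variation was 4.22%, against 1.40% from counting error alone. The log2 difference was -0.03 (SE 0.0704, 95% interval -0.19 to 0.13), and it turned to 0.017 without Tet2 cKO replicate 1. The thalamus lies next to the habenula and has abundant Cacna1g. Genes listed as markers of its neurons summed to 645 to 705 FPKM in WT libraries, against 642 to 696 FPKM in those labelled Tet2 cKO. Of these 12, 0 were at 0, and the largest on average was Slc17a6 at 117.7 to 132.23 FPKM. How much of the sum came from habenula neurons cannot be told in bulk tissue, and its part in the Cacna1g level was not tested.

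Cacna1i encodes CaV3.3, the slowest of the T-type channels and typical of the thalamic reticular nucleus, and lies at chr15:80287238-80398279 on the plus strand (ENSMUSG00000022416). Its level was 6.98, 5.88 and 5.59 FPKM in WT libraries, against 4.87, 5.68 and 6.95 FPKM in those labelled Tet2 cKO. WT replicate 1 and Tet2 cKO replicate 3 were the high libraries, and Tet2 cKO replicate 1 was again the lowest. The log2 difference was -0.09 (SE 0.133, 95% interval -0.38 to 0.21). Its direction turned to 0.018 with WT replicate 1 left out and to 0.033 when Tet2 cKO replicate 1 was, and it was -0.14 without WT replicate 3. GABAergic neuron markers summed to 26.4 to 46.9 FPKM in WT libraries, against 26.3 to 40.8 FPKM in those labelled Tet2 cKO, highest in WT replicate 3 and Tet2 cKO replicate 2. Their part in the Cacna1i level was not tested.

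Cacna1h encodes CaV3.2, known from nociceptive sensory neurons, and lies at chr17:25374285-25433783 on the minus strand (ENSMUSG00000024112). It was the lowest and most variable member, at 1.2, 2.27 and 1.78 FPKM in WT libraries, against 1.54, 1.65 and 1.64 FPKM in those labelled Tet2 cKO, from 202, 356 and 308 counts and 263, 289 and 286 counts. Both the lowest and the highest value were in WT, and all 3 values of libraries labelled Tet2 cKO lay between them. The coefficient of variation was 30.6% within WT libraries, against 3.78% in those labelled Tet2 cKO, with 5.93% from counting error over the 6 libraries. With 3 libraries a group, that difference in spread was not tested. The log2 difference was -0.12 (SE 0.191, 95% interval -0.55 to 0.31), the widest interval of the 6, and without WT replicate 2 it was 0.10.

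Of the 6 members, all of which passed the expression minimum, 0 passed the edgeR quasi-likelihood test at a Benjamini-Hochberg adjusted p under 0.05 (smallest unadjusted p = 0.348), against 0 of 14539 genes, or 0.00%, over the whole table. At an unadjusted p under 0.05 the members again counted 0, against 2.57% of tested genes, and DESeq2 and limma likewise passed 0 of the 6. Groups did not overlap for 0 members, against 6.80% of tested genes. The median log2 difference of the members was -0.05, with 5 of 6 negative, and that of all tested genes was -0.00. Not passing does not show that the levels were alike. The intervals leave room for a change to between 0.861-fold and 1.06-fold for Hcn2 and between 0.684-fold and 1.24-fold for Cacna1h. The exact two-sided permutation test over libraries gave p = 0.3 for Hcn2 and p = 0.5 to 0.9 for the others, and the smallest p it can give with 3 against 3 is 0.1.

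The order of levels was tested within libraries, since each library measures all 6 genes. Of 15 pairs, 13 stood in 1 order in every library. Each of these passed an exact sign-flip permutation test of the difference in log2(FPKM + 1) (two-sided, adjusted p = 0.0361, from p = 0.0312). This p, the smallest that 6 libraries allow, follows whenever all 6 differences share a sign, so it only restates the constant order. The order is that of FPKM with the exonic lengths used, and in counts Cacna1g was above Hcn2 in every library. In FPKM, Hcn2 exceeded Cacna1g 1.65-fold on average, within 1.58-fold and 1.71-fold, and Cacna1g exceeded Hcn4 3.18-fold. Cacna1i exceeded Cacna1h 3.73-fold, within 2.59-fold and 5.82-fold. The pairs that did not pass were neighbours in the order. Hcn4 exceeded Hcn3 in 5 of 6 libraries, 1.17-fold on average (range 0.917 to 1.48, exact permutation adjusted p = 0.0625), and WT replicate 3 had the reverse order. Hcn3 exceeded Cacna1i in 5 of 6 libraries, 1.35-fold on average (range 0.971 to 1.64, exact permutation adjusted p = 0.0625), with the reverse order in WT replicate 1.

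The make-up of each family was close in the 6 libraries. The share of Hcn2 in the HCN sum was 74.5%, 72.8% and 74.9% in WT libraries, against 72.2%, 74.5% and 72.6% in those labelled Tet2 cKO. Hcn4 held 12.01% to 15.2% and Hcn3 10.3% to 13.1%. Cacna1g held 78.5%, 77.3% and 80.2% of the T-type sum in WT libraries, against 80.8%, 80.1% and 77.5% in those labelled Tet2 cKO. Cacna1i held 14.6% to 18.4% and Cacna1h 3.16% to 6.32%, both ends of the latter in WT. The group means of the 6 shares differed by -0.942 (Hcn2) to 0.824 (Cacna1g) percentage points, none beyond the spread between libraries (exact permutation p = 0.3 to 0.9, adjusted p = 0.84 to 0.9). Summed HCN levels were 65.85, 65.25 and 66.17 FPKM in WT libraries, against 61.85, 62.56 and 67.59 FPKM in those labelled Tet2 cKO, and summed T-type levels were 37.1 ± 1.04 and 36.2 ± 2.48 FPKM (SD, n = 3 each).

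**Figure D2:**
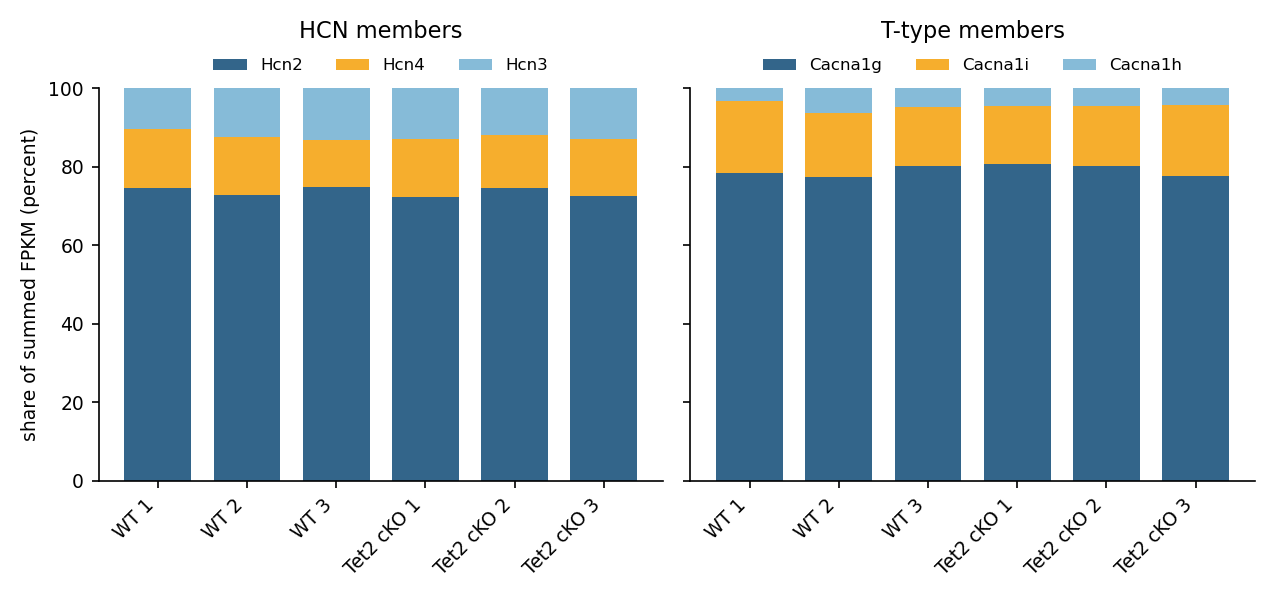
Share of each gene in the summed FPKM (percent) of the HCN members (left) and the T-type members (right), 1 bar per library. Hcn2 holds 72.2% to 74.9% and Cacna1g 77.3% to 80.8% in every library.

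Set beside the 7 alpha1 subunits of high-voltage-activated calcium channels, which open at stronger depolarisation and drive transmitter release or couple to gene regulation, Cacna1g had the highest level per length in each library. It exceeded the highest of them, Cacna1e or Cacna1b, 1.98-fold to 2.58-fold. The R-type gene Cacna1e stood at 11.4 ± 2.68 FPKM and the N-type gene Cacna1b at 11.9 ± 0.921 FPKM in WT (SD, n = 3 each). Over all 10 alpha1 genes, the 3 T-type genes made up 44.5% ± 1.56 of the summed level, and Cacna1g alone 35.2% ± 1.304 (SD, n = 6 libraries). Cacna1h, by contrast, ranked below 5 of the high-voltage genes in mean level. None of the 5 tested high-voltage genes passed, with differences from -0.06 to 0.09 on the log2 scale.

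**Figure D3:**
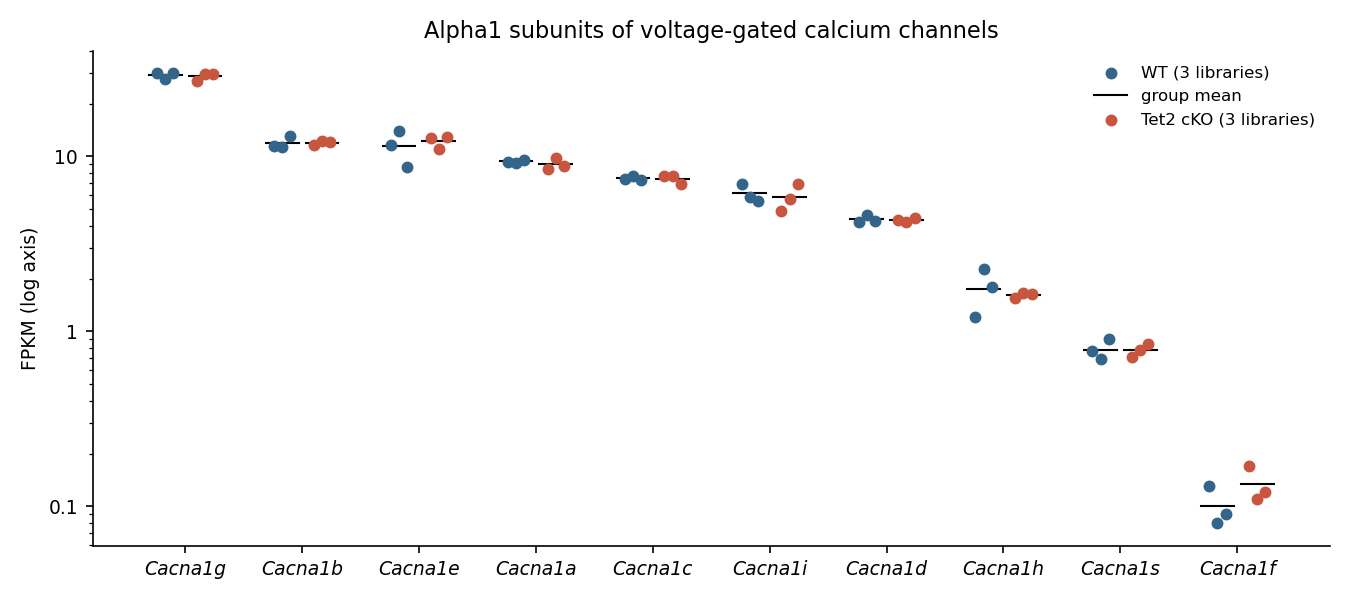
FPKM (log axis) of the 10 alpha1 subunit genes of voltage-gated calcium channels in each library, ordered by mean level, WT in blue and libraries labelled Tet2 cKO in red, with lines at group means (n = 3). Cacna1g lies above the other 9 genes in each library, and Cacna1h at 1.2 to 2.27 FPKM is the eighth.

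Genes around the channels were taken from lists. Of 73 listed genes, 65 were tested, 0 passed over all genes, and 1 had an unadjusted p under 0.05, a smaller share than the 2.57% of all tested genes. Among 8 tested HCN partners and regulators, 3 were higher and 5 lower, with a median of -0.03. Pex5l, whose product TRIP8b controls HCN trafficking and cyclic AMP binding, was the most abundant at 16.9 ± 1.47 FPKM in WT libraries, against 16.7 ± 0.760 FPKM in those labelled Tet2 cKO (SD, n = 3 each). Kctd3, a partner of HCN3, differed by 0.01 (SE 0.0809), and Lrmp, a regulator of HCN4, averaged under 1 FPKM and was not tested.

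Kcne2, a small membrane protein that can associate with HCN channels and is abundant in choroid plexus, had the unadjusted p under 0.05. It stood at 9.26, 4.04 and 2.71 FPKM in WT libraries, against 3.54, 1.07 and 1.33 FPKM in those labelled Tet2 cKO, and the groups overlapped. The log2 difference was -1.44 (SE 0.509, edgeR adjusted p = 0.9999). Leaving out WT replicate 1 gave -0.78, leaving out Tet2 cKO replicate 1 gave -2.15, and without a filter on low values it passed (adjusted p = 7.5e-05). Across the other alternatives the adjusted p lay at or above 0.385. The fitted log2 difference was negative for 10 of 10 choroid plexus markers, which share the same libraries and are not independent. An exact permutation test of their mean log2(FPKM + 1) between the groups gave p = 0.2. Their summed levels were 1403, 840 and 451 FPKM in WT libraries, against 828, 173 and 287 FPKM in those labelled Tet2 cKO, so the groups overlapped. Kcne2 was highest in the library with the highest sum and lowest in the one with the lowest sum, and their part in the Kcne2 result was not tested.

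Of 17 tested genes of cyclic AMP synthesis and breakdown, 6 were higher and 11 lower, with a median of -0.03 and values from -0.16 to 0.13. The most abundant was Pde1b, a calcium- and calmodulin-dependent phosphodiesterase, at 31.9 ± 2.41 FPKM in WT libraries, against 33.8 ± 0.766 FPKM in those labelled Tet2 cKO (SD, n = 3 each). Of 9 tested regulators of T-type channels, 5 were higher and 4 lower, with a median of 0.01. Gnb2, a G protein beta subunit that inhibits CaV3.2, led this list at 55.8 ± 6.22 and 55.0 ± 3.10 FPKM. Of 26 tested genes of other pacemaking and burst conductances, 16 were higher and 10 lower, with a median of 0.02. Kcnj10, the glial potassium channel Kir4.1 that sets the resting potential of lateral habenula neurons through extracellular potassium, was the most abundant at 100.7 ± 9.65 and 114 ± 9.20 FPKM, a difference of 0.17 (SE 0.0911, adjusted p = 0.9999 by edgeR). Groups did not overlap for 3 of the 65 tested listed genes, no larger a share than the 6.80% of all tested genes, and their names were picked with these values known: the cyclase gene Adcy2 was higher and the potassium channel genes Kcnk1 and Kcnj3 were lower in each library labelled Tet2 cKO, by 0.12, -0.09 and -0.11 on the log2 scale, none past the test.

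**Figure D4:**
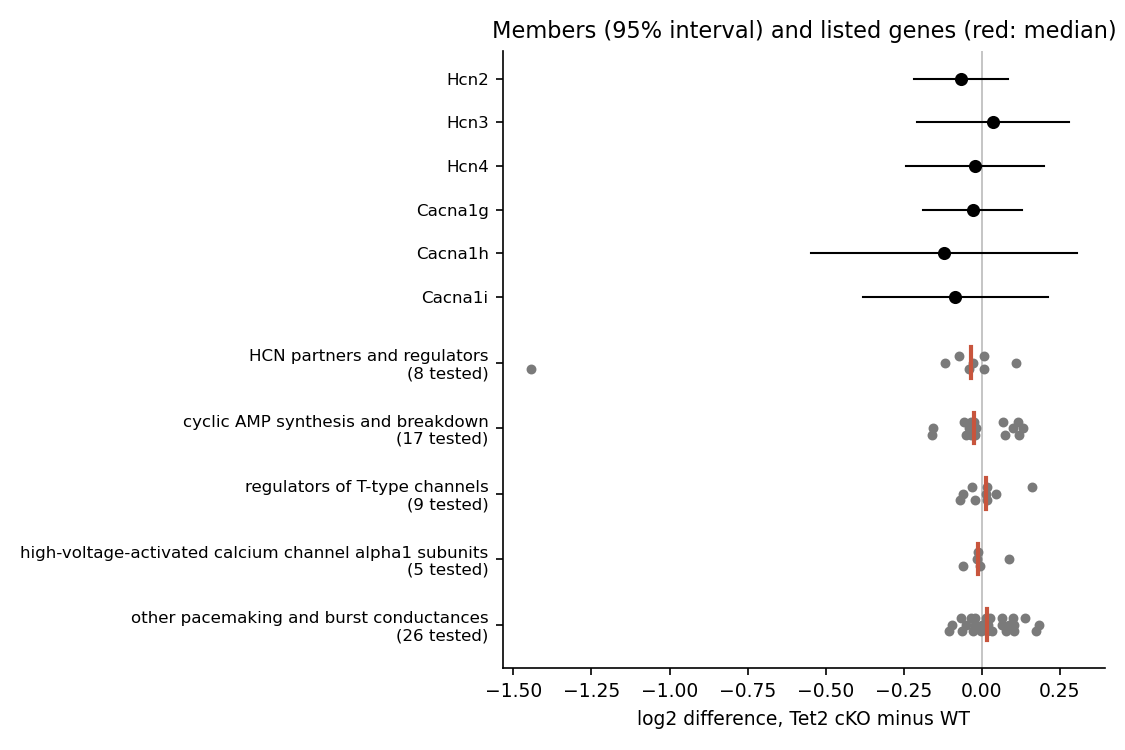
Log2 difference, Tet2 cKO minus WT, of the 6 channel genes with 95% intervals (black) and of the tested genes of 5 lists (grey, red line at each median). Each of the 6 intervals includes 0, and the single grey point far from 0 is Kcne2 at -1.44.

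By library, Hcn2 and Cacna1g each ranged over 1.11-fold, Hcn4 over 1.26-fold, Hcn3 over 1.301-fold, Cacna1i over 1.43-fold and Cacna1h over 1.89-fold. Summed pan-habenula markers ranged from 101 to 205 FPKM and summed choroid plexus markers from 173 to 1403 FPKM. Of the 13 medial habenula markers, the nicotinic receptor gene Chrnb4 stood at 7.22 FPKM in WT replicate 3 and at 10.42 to 17.09 FPKM elsewhere. The acetylcholine synthesis gene Chat stood at 1.77 FPKM there and at 2.94 to 4.49 FPKM elsewhere. Calb2, the most abundant medial marker, was highest in that library, at 332 FPKM. Tac1 (5.72 FPKM) and Il18 (19.3 FPKM) were not at their lowest there, while the remaining medial markers were. The summed medial markers, at 515 FPKM in WT replicate 3, lay within the 457 to 540 FPKM of libraries labelled Tet2 cKO. The summed lateral habenula markers were highest in WT replicate 3, at 471 FPKM. In WT replicate 3, with the lowest pan-habenula sum, Hcn2 and Cacna1g were at their highest and Hcn4 at its lowest. Tet2 cKO replicate 1 had the lowest Hcn2, Cacna1g and Cacna1i, with a pan-habenula sum of 178 FPKM and a thalamus sum of 682 FPKM.

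**Figure D5:**
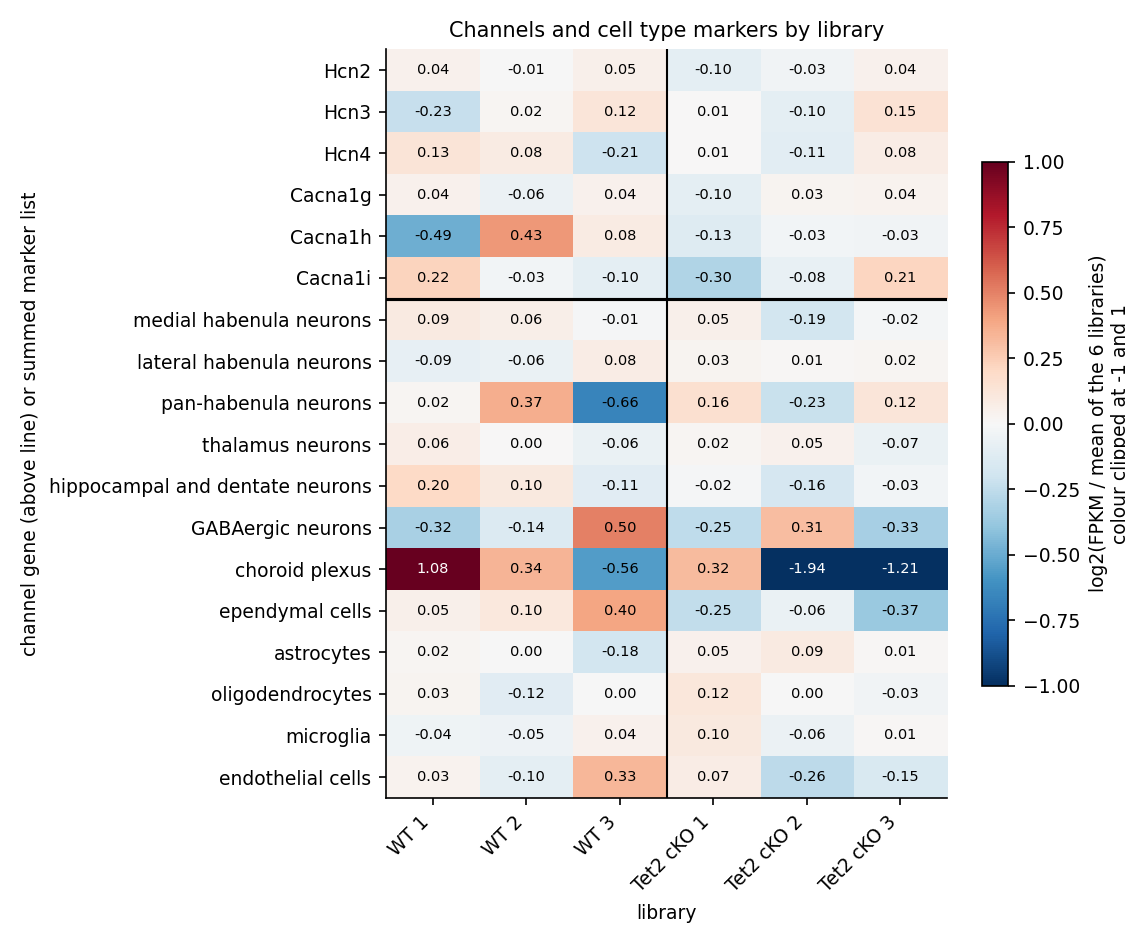
Log2 ratio of each library to the mean of the 6 libraries, for the FPKM of the 6 channel genes (above the line) and for the summed FPKM of 12 cell type marker lists (below it), with WT left and Tet2 cKO right of the vertical line. Hcn2 and Cacna1g stay between -0.10 and 0.05, while pan-habenula markers reach -0.66 in WT replicate 3.

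The genes with the most similar profile over the 6 libraries were taken by the smallest root mean square difference of log2(FPKM + 1), each gene centred to 0, among 12434 tested genes. For Hcn2 they were Mvk, Sfxn3 and Rbm15b (0.0135 to 0.0185, against a spread of Hcn2 itself of 0.0515), and for Cacna1g Tenm4, Celf4 and Got1 (0.0158 to 0.0183, against 0.0546). Nearest to Hcn4 were Zfp28 and Dok4 (0.0237 each, against 0.105), and nearest to Hcn3 Csf2ra, Exosc8 and Dapk3 (0.0204 to 0.0346, against 0.115). Cacna1h was nearest to Lmo3, Tmem200a and Zfp72 (0.0251 to 0.0568, against 0.170), and Cacna1i to Morn1, Dsel and Dhx37 (0.0435 to 0.0591, against 0.156). No member was among the 3 nearest genes of another. Over 6 libraries and so many genes, small values arise for some genes in any case, and these are a description.

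TET enzymes act on methylated CpG sites, so the start regions are shown with each CpG in capitals. RefSeq windows on GRCm38.p6, from 250 bases before to 50 after the RefSeq gene start, matched 3 of the 6 members. For Hcn4 that start lies upstream of the GENCODE start given above, and the window ends before the GENCODE gene begins. No methylation was measured here.
Hcn2: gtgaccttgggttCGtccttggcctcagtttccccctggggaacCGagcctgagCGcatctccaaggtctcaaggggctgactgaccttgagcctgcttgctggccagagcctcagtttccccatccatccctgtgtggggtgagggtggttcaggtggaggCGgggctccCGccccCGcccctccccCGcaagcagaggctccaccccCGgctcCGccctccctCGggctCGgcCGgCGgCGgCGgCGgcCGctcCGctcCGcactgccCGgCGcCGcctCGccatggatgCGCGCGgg
Hcn4: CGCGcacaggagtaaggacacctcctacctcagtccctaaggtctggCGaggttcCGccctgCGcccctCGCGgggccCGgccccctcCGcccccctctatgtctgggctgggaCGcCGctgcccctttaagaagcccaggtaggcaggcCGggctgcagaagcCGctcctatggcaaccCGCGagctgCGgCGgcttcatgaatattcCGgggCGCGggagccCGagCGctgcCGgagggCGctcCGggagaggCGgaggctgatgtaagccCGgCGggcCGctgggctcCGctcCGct
Cacna1i: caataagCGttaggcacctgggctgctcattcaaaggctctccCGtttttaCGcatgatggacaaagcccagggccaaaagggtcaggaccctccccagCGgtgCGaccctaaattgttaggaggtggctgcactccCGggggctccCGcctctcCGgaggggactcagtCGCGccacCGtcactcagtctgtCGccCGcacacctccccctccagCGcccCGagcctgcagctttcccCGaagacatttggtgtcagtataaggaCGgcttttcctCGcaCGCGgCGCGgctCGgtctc
They are chr10:79716384-79716683, chr9:58822699-58822998 and chr15:80286988-80287287, each on the plus strand. The letters CG occur 26 times in the Hcn2 window, 31 times in that of Hcn4 and 23 times in that of Cacna1i, on both strands alike since CG is its own complement. Over all 32851 windows of this length the median was 7, and at least as many CpGs were held by 16.9%, 10.6% and 21.5% of them.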

How the data were processed

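RNA from 3 WT and 3 Tet2 cKO habenula libraries was sequenced. The deposited table holds raw counts per Ensembl gene and, per the file headers, FPKM values made by the authors, which follow from the deposited counts, the exonic gene size and the library total within 0.0051 for 100% of values. Per the submitters' processing notes, the tools were HISAT2 2.0.1, cutadapt 1.9.1, SAMtools 0.1.19 and FastQC 0.10.1, and the build mm10. The sources used here do not name the read counter, annotation release or strand setting. The coordinates in the table differ from GRCm38, so positions are those of GENCODE M21, joined by gene identifier.

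Counts of 14539 genes, those whose mean reached 1 FPKM, were tested with edgeR 4.0.16 (quasi-likelihood, TMM, two-sided, no covariate, R 4.3.3), adjusted by Benjamini-Hochberg over all of them at 0.05. The common biological coefficient of variation was 10.4%. Counts over 14539 genes were simulated with the means and dispersions of this comparison. Of them, 67, 67 and 66 genes were changed 1.5-fold, 2-fold and 4-fold. Recovery was 44.8%, 82.1% and 95.5%, and 8.07% of 161 calls were false. Recovery depends on how many genes change, and no simulated library was made to stand apart as WT replicate 3 did. These shares are therefore not the power reached in the real libraries. Levels were compared between genes as FPKM only. Alternatives were DESeq2 1.42.0, limma 3.58.1 on log2(FPKM + 1) and log2(FPKM + 0.1), no filter on low values, leaving out each library, and a replicate block. Named were the 6 members, Tet2, each listed gene with an unadjusted p under 0.05, the most abundant gene of each list, and the 3 most similar genes per member (predicted genes, clones and pseudogenes left out). Some genes that this rule covers are not reported here. Any other gene was named after its values were seen. Members and lists were chosen with earlier results of these data known. Counting coefficients of variation cover counting error only.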

Additional observations from a re-analysis of the deposited data

How the results depend on the processing

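The 6 differences between the groups stayed short of the threshold under each of the 11 alternatives run per gene, with the smallest adjusted p = 0.902 (Hcn4). DESeq2, limma with either pseudocount, the test without a filter and the replicate block kept the sign of all 6. Leaving out each library gave -0.10 to -0.030 for Hcn2, -0.057 to 0.13 for Hcn3, -0.11 to 0.045 for Hcn4, -0.068 to 0.017 for Cacna1g, -0.33 to 0.10 for Cacna1h and -0.23 to 0.033 for Cacna1i, so the sign held throughout only for Hcn2. Reversed values were, for Hcn3, -0.057 with WT replicate 1 left out and -0.030 when Tet2 cKO replicate 3 was; for Hcn4, 0.045, 0.011 and 0.027 without WT replicates 1 and 2 and Tet2 cKO replicate 2; for Cacna1g, 0.017 without Tet2 cKO replicate 1; for Cacna1h, 0.10 without WT replicate 2; and for Cacna1i, 0.018 and 0.033 without replicate 1 of WT and of Tet2 cKO. The cause was not tested.

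Over all genes the count past the threshold was 0 in the main test, 4 with DESeq2, 49 without a filter (1 of them listed, Kcne2) and 0 to 3 leaving out each library (1 without WT replicate 2, 3 without WT replicate 3). Leaving out each library gave 0 to 0 listed genes past the threshold, 13 to 14 pairs of channels in 1 order, and mean shares of 73.3% to 73.9% for Hcn2, 12.1% to 12.7% for Hcn3, 13.9% to 14.6% for Hcn4, 78.7% to 79.4% for Cacna1g, 15.9% to 16.7% for Cacna1i and 4.26% to 4.89% for Cacna1h. Shares of counts, which weight long transcripts more by construction, were 63.1% for Hcn2, 13.7% for Hcn3 and 23.2% for Hcn4.

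Same-numbered libraries deviated from their group means with correlations of -0.0279, 0.153 and -0.0978 across genes. Those of libraries with unlike numbers ranged from -0.177 to 0.170. These values do not show a pairing by number, and with 3 libraries centred in each group they cannot exclude one. With the replicate block the edgeR count stayed 0, and the Hcn2 difference was -0.067. At 3 libraries a group, changes in Cacna1h, with a standard error of 0.191, are the least well resolved.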
